A study of Mus musculus with 3 samples.

Results

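A group of 229 cells in the back skin of mouse fetuses at E13.5, about midway through gestation, carried transcripts of cartilage and meninges genes. They made up 3.84% of the 5962 cells of the E13.5 library, and the series held 16235 cells in all. A cell was chosen when at least 3 of 8 marker genes, namely Col2a1, Col9a1, Col9a3, Mia, Fmod, Cldn11, Vtn and Foxc2, had 1 or more unique molecular identifiers (UMIs, counted transcript molecules). In addition, Cdh5 of endothelium, Ptprc of leukocytes, Sox10 of glia and melanocytes, Trp63 of epidermis and Elavl3 of neurons had to be at 0, which held for 4349 cells. The chosen cells were set beside 3737 reference cells. These were all other E13.5 cells with those 5 zeros and at least 1 UMI of Lum, a proteoglycan of dermal fibroblasts. Lum was found in 5145 of the 5962 cells, so the reference was a mixture and not dermal fibroblasts alone. When the whole library was clustered, 356 reference cells fell in a cluster led by globin genes. A cluster led by genes such as Pax7 and Myf5 held 278, and 1 led by genes such as Pf4 and C1qa held 223. Because measured values of the 8 marker genes, the 5 excluded genes and Lum chose both groups, their levels are given as a description only.

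The study sampled dorsal skin of male C57BL/6 mice at birth (P0) and at the fetal stages E13.5 and E16.5, with 1 droplet library of 3′ transcript ends (10x Genomics chemistry version 2) per stage. Each library came from the skin of several pooled animals without any mutant allele or treatment, and the skin was dissociated with trypsin at both embryonic stages and with collagenase IV at P0. A library cannot be split by animal, so no value below has a replicate and no test was made. Error is given as the 95% exact Poisson interval for UMI counts and the 95% exact Clopper-Pearson interval for shares of cells, both of which cover counting error only. The E13.5 library held 53334740 UMIs with 3586 to 66675 per cell and a median of 7066.5, and 84 of its cell barcodes also occurred in another library.

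Cartilage forms when mesenchymal cells, in the trunk largely those of the sclerotome, condense and switch on the transcription factor gene Sox9, which drives the type II and type IX collagen genes Col2a1, Col9a1, Col9a2 and Col9a3. The meninges are the connective tissue sheets around the brain and spinal cord. Their precursors depend on the forkhead factor gene Foxc1 and carry Zic family genes, and the outer arachnoid layer seals its cells with the tight junction protein claudin 11, encoded by Cldn11. Both tissues form close to the skin along the back of the fetus.

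The 4 sequences that follow are the regions from 250 bases before to 50 bases after the annotated transcript start of 4 of the 8 marker genes, in the mouse build GRCm38.p6 as given by RefSeq. They show the collagen gene Col9a1, Mia, Cldn11 and Vtn. The chosen cells were divided below by detection of Col2a1 and Cldn11, and no window for Col2a1 was at hand. All run 5′ to 3′ on the strand of the gene, and capitals mark letters that match one of 3 core promoter motifs, spelled CCAAT for the CCAAT box, GGGCGG for the GC box and TATAAA for the TATA box, on either strand.
Col9a1, chr1:24177360-24177659, plus strand: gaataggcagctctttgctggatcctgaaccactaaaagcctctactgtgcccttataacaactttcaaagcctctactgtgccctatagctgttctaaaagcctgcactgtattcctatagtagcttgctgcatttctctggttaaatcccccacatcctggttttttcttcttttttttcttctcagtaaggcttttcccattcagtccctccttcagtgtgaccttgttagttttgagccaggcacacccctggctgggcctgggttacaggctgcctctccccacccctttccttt
Mia, chr7:27181100-27181399, minus strand: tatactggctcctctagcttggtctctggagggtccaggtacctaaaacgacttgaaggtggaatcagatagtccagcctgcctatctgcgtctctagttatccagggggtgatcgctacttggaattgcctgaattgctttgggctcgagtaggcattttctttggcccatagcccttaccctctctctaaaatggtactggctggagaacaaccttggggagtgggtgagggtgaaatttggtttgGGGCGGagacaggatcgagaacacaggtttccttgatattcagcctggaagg
Cldn11, chr3:31149670-31149969, plus strand: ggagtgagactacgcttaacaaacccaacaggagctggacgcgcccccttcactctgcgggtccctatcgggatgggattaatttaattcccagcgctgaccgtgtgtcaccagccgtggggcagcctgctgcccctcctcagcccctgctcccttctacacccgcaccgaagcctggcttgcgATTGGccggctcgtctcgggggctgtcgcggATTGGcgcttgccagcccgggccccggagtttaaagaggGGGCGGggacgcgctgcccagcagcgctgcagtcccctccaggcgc
Vtn, chr11:78498870-78499169, plus strand: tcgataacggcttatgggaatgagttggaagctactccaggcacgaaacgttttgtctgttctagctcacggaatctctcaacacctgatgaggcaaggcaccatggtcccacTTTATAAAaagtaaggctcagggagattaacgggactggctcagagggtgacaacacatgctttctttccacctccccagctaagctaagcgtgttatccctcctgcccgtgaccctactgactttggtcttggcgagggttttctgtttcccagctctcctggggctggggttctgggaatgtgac

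The Cldn11 window had 66.3% G and C, against 47.3% for Col9a1, 50.7% for Mia and 51.7% for Vtn. It held CCAAT 2 times on the opposite strand and GGGCGG once, whereas the Vtn window held TATAAA on each strand in overlapping positions and the Col9a1 window held none of the 3 motifs. CCAAT was found in 37.4%, GGGCGG in 35.7% and TATAAA in 13.6% of all 32851 windows of that length. The SOX core motifs, ACAAAG with the variant ACAATG, and the FOX core motif GTAAACA, present in 18.7%, 12.6% and 3.65% of all windows, did not occur on either strand in these 4, which says only that these letters are not in these windows. Windows for 5 of the 8 marker genes were at hand. By the GENCODE annotation of GRCm38, Cldn11 spans chr3:31149920-31164324 on the plus strand, Vtn chr11:78499091-78502324 on the plus strand and Col2a1 chr15:97975602-98004695 on the minus strand.

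Most chosen cells were chosen through collagens. Col9a1 was detected in 180 of the 229 cells, Col2a1 in 170 and Col9a3 in 166, and 108 cells had all 3, while 10 had none of them. The 170 cells with Col2a1 had a median of 2 UMIs and at most 26, and 77 of them had a single UMI. Fmod, which encodes the matrix proteoglycan fibromodulin, was found in 118 cells, Mia, which encodes a small secreted protein of cartilage, in 98 cells, and the forkhead factor gene Foxc2 in 89 cells. Cldn11 was in 65 cells with a median of 1 UMI and a maximum of 45. Vtn, which encodes the adhesion protein vitronectin, was in only 9 cells, but these held 164 UMIs with up to 54 in a single cell. The cells showed 61 different combinations of the 8 genes, of which 22 occurred once, and the most common was Col2a1, Col9a1 and Col9a3 together in 27 cells.

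The threshold of 3 genes cut through a continuous distribution. Exactly 3 of the 8 genes were found in 116 chosen cells and 4 to 7 genes in the other 113, whereas 257 cells just outside the rule had 2 genes. Summed Col2a1 was 44.8 CPM (counts scaled to a sum of 1000000 UMIs) in the cells with 2 genes, 111 CPM in those with 3 and 772 CPM in the 10 cells with 7. Sox9, which the rule did not use, went from 46.9 CPM to 99.8 CPM and then 329 CPM over the same cells, and Lum fell from 712 CPM to 507 CPM and then 114 CPM. Chosen cells were also deeper than reference cells, with a median of 8313 against 6917 UMIs, and 40 of them (17.5%, against 11.0% of the reference) had over 2 times the library median.

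Cells with a UMI of an excluded gene met the same count of marker genes less often. Among the 1613 cells with a UMI of at least 1 of the 5 excluded genes, 3.35% (2.52 to 4.35%) had 3 or more of the 8 marker genes, at a median of 7416 UMIs, against 5.27% (4.62 to 5.97%) of cells with the 5 zeros at a median of 6949 UMIs. With every cell thinned to 3500 UMIs the shares were 1.36% (0.857 to 2.05%) and 2.69% (2.23 to 3.22%). The difference between these 2 sets was thus larger than the counting error. The cells with an excluded gene were not free of marker transcripts, so they are no blank. Cldn11 stood at 50.2 CPM in Cdh5-positive cells against 5.41 CPM in cells with the 5 zeros outside the rule. Col2a1 stood at 7.86 against 8.64 CPM in the same cells. Much of the Cldn11 in Cdh5-positive cells came from 7 cells with 10 to 47 Cldn11 UMIs and only 1 to 3 Cdh5 UMIs each. Of the 54 cells with an excluded gene and 3 or more marker genes, 16 lay in the library cluster, described further on, that held most of the chosen cells.

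Outside the genes of the rule, the chosen cells carried more transcripts of cartilage genes. A gene is called higher or lower here when its log2 difference of CPM + 10 was at least 1 and it had 50 or more UMIs over both groups. By this limit, 134 of 12626 genes (1.06%) were higher in the chosen cells and 29 (0.23%) were lower, 1.29% in either direction, the genes of the rule included. This balance depended on which cells and settings were used: for the 121 chosen cells of the main library cluster 253 genes were higher and 304 lower, and with 1 in place of 10 added to CPM 368 were higher and 344 lower. Of the 22 cartilage genes measured, 13 had enough UMIs and 7 of these were higher while none was lower, with a median log2 difference of 1.05. Sox9 stood at 150 CPM (340 UMIs in 113 cells) against 19.4 CPM, a log2 difference of 2.44 (2.27 to 2.60). Its partner factor gene Sox5 had 32.1 CPM against 2.89 CPM, Col11a1, which encodes a chain of type XI collagen, 203 CPM against 28.9 CPM, and Col9a2 116 CPM against 19.1 CPM. Matn4, which encodes the matrix protein matrilin 4, reached 70.8 CPM against 3.42 CPM.

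**Figure D1:**
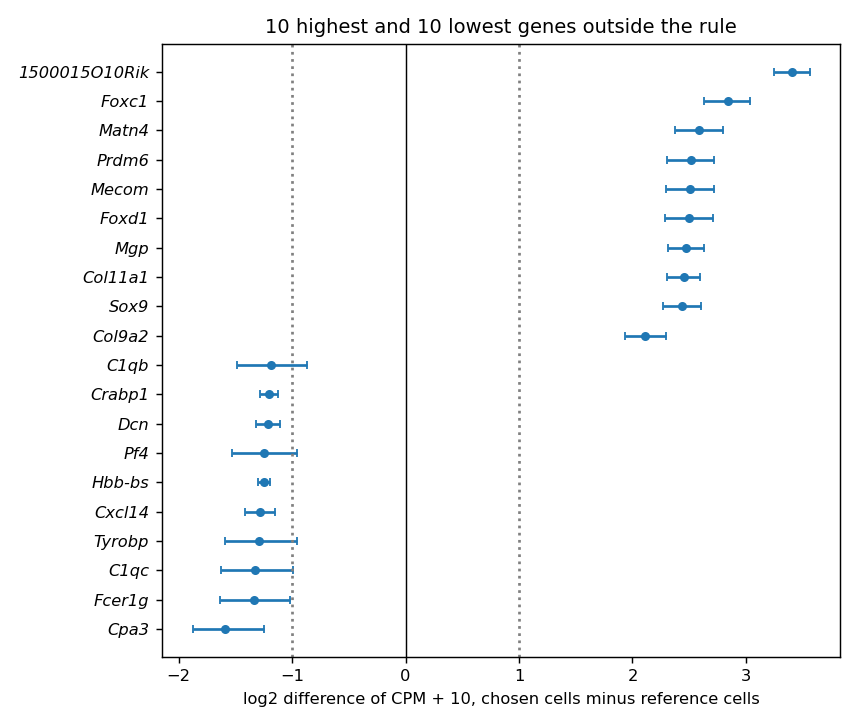
Log2 difference of CPM + 10 between the 229 chosen cells and the 3737 reference cells for the 10 highest and 10 lowest genes that the rule did not use; bars are 95% intervals from counting error only, and dotted lines mark a log2 difference of 1 in either direction. The high end runs from Col9a2 at 2.11 to 1500015O10Rik at 3.41 and the low end reaches -1.59 for Cpa3.

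Genes of differentiated cartilage had few UMIs in either group. Acan, which encodes the main cartilage proteoglycan aggrecan, had 12 UMIs in all 229 cells together (5.28 CPM, 2.73 to 9.22 CPM) against 6 UMIs in the reference (0.188 CPM, 0.0692 to 0.410 CPM). Col11a2 had 20 UMIs (8.80 CPM) against 9 UMIs (0.283 CPM), Matn1 4 UMIs (1.76 CPM) against 4 UMIs (0.126 CPM) and Hapln1, which encodes the link protein of aggrecan, 17 UMIs (7.48 CPM) against 49 UMIs (1.54 CPM). These 4 genes were thus low in both groups but higher in the chosen cells, with intervals that did not overlap. Comp had 5 UMIs, Chad 3 and Matn3 none in the chosen cells, and Ihh, a signal of maturing chondrocytes, was at 0 in both groups. Most of these lay under the minimum of 50 UMIs and were named after their low values were seen. The early bone factor gene Runx2 was measured at 41.4 CPM against 17.8 CPM, a log2 difference of 0.88 that stayed within the limit.

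Sclerotome and tendon genes were raised beside the cartilage genes. Of the 7 sclerotome genes measured, 5 were higher and none lower (median log2 difference 1.05): Pax1 stood at 71.3 CPM against 30.0 CPM, Pax9 at 20.7 CPM against 2.51 CPM and Meox1 at 39.2 CPM against 13.4 CPM. Of 9 tendon genes, 4 were higher and none lower, among them the tendon progenitor factor gene Scx with 67.8 CPM against 23.6 CPM and Tnmd, which encodes the tendon membrane protein tenomodulin, with 82.7 CPM against 34.2 CPM. The tendon list also named Ecrg4, which the table holds under its older symbol 1500015O10Rik and which was therefore not counted with the list. It was the highest gene outside the rule, with 389 UMIs in 90 cells (171 CPM) against 7.10 CPM, a 24.1-fold ratio (20.4 to 28.5). In the clusters of chosen cells described further on, it stood at 525 CPM in cluster 1 against 67.7 CPM in the others. Tnmd led cluster 3 instead, and Scx was among the leading genes of cluster 2. The summed tendon list stood at 674 CPM in cluster 1, 733 CPM in cluster 2, 835 CPM in cluster 3 and 382 CPM in cluster 4. Whether 1500015O10Rik is a tendon signal here was not tested.

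Of 24 meninges genes, 22 had enough UMIs and 11 were higher while none was lower (median log2 difference 0.95). Foxc1, which is on the sclerotome list as well, showed the largest difference of these with 74.4 CPM in the chosen cells (169 UMIs in 93 cells) against 1.79 CPM in the reference, a 41.5-fold ratio (30.6 to 57.1). Zic1 stood at 323 CPM against 131 CPM, Zic4 at 147 CPM against 49.5 CPM, and Mgp, which encodes the mineral binding matrix Gla protein, at 166 CPM against 21.7 CPM. Other meninges genes lay within the limit, for example Nnat with 427 CPM against 426 CPM and Cxcl12 with 127 CPM against 141 CPM. Among 25 signalling genes with enough UMIs 4 were higher and none lower. The growth factor genes Bmp4, Gdf10 and Gdf5 had 152, 37.0 and 17.2 CPM against 51.7, 12.3 and 0.817 CPM, and Dkk3, which encodes a secreted relative of Wnt inhibitors, 52.8 CPM against 6.63 CPM. The limit was also passed by Prdm6, Mecom and Foxd1, which encode transcriptional regulators, at 74.8, 70.0 and 70.0 CPM against 4.84, 4.05 and 4.12 CPM.

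Lists of other tissues that use Col2a1 or Cldn11 had no member past the limit. Notochord genes summed to 20.7 CPM in the chosen cells and 24.6 CPM in the reference, and none of the 3 with enough UMIs passed the limit. Only 5 of the 9 listed notochord symbols were measured, and Noto, Foxa1 and Foxa2 were not among them. This list therefore cannot decide whether notochord cells were present. Perineurium genes, of the sheath around nerves, summed to 255 CPM and 244 CPM with 0 of 7 past the limit. Of the 4 oligodendrocyte precursor genes measured, 3 were at 0 in the chosen cells, Sox10 by the rule. Their sum was 119.7 CPM in the chosen cells and 88.1 CPM in the reference, which is higher by 0.44 (0.26 to 0.62) on the log2 scale. All 272 UMIs were of Pdgfra, a growth factor receptor gene that fibroblasts also express. Hox genes, which mark the level along the trunk, had 4 of 28 higher and none lower, and these were Hoxa3, Hoxa5, Hoxa7 and Hoxc6 with log2 differences of 1.18, 1.45, 1.12 and 1.01.

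Dermal and blood transcripts were lower in the chosen cells than in the mixed reference. Among 12 dermal genes 4 were lower and none higher: the dermal factor gene Twist2 fell from 446 CPM in the reference to 196 CPM, the retinoid binding protein gene Crabp1 from 1235 CPM to 530.2 CPM, the decorin gene Dcn from 755 CPM to 320 CPM and Nrgn from 203 CPM to 95.5 CPM. Immune genes summed to 50.2 CPM against 198 CPM with 4 of 6 lower, muscle genes to 195 CPM against 435 CPM with 1 of 6 lower, and erythroid genes to 11130.1 CPM against 18712 CPM with 1 of 6 lower. Epithelial genes, with 181 against 207 CPM, neural genes, with 228 against 262 CPM, and endothelial genes, with 55.9 against 80.9 CPM, had no member past the limit in either direction. These lower values depended on the threshold of the rule. With at least 2 in place of 3 marker genes, 70 genes were higher and 2 lower, and all 10 genes with the lowest differences came within the limit, among them Dcn at -0.86, Crabp1 at -0.69, Hbb-bs at -0.49 and Fcer1g at -0.22. The reference included cells of library clusters led by globin, muscle and immune genes, and their part in these lower values was not tested. The part of these differing shares of other transcripts in the gene differences was not tested either.

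To ask whether Col2a1 and Cldn11 sat in the same cells, both were counted in all 4349 cells with the 5 zeros, where the count of marker genes played no role. Col2a1 was found in 45 of 202 Cldn11-positive cells (22.3%, 16.7 to 28.6%) and in 9.09% (8.23 to 10.0%) of Cldn11-negative cells. Conversely, Cldn11 was found in 10.7% (7.89 to 14.01%) of the 422 Col2a1-positive cells and in 3.998% (3.41 to 4.66%) of the others. The transcripts therefore shared cells more often than each was found in cells without the other, with intervals that did not overlap. The same order held in the deepest, the middle and the shallowest cells, taken as 3 equal groups, and after thinning to 3500 UMIs the shares were 16.8% (10.4 to 25.0%) against 5.15% (4.50 to 5.86%). In cells with an excluded gene, Col2a1 was detected in 6.36% of Cdh5-positive cells (median depth 8392 UMIs) and in 5.33% of Ptprc-positive cells (median depth 9767 UMIs).

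Shared cells had little of one or both transcripts. Of the 45 cells with both genes, 33 had a single Cldn11 UMI, 19 had a single Col2a1 UMI and 6 had 2 or more of each. The 12 cells with at least 8 Col2a1 UMIs included 5 with Cldn11, which had 1 to 3 UMIs of it. The 7 cells with at least 8 Cldn11 UMIs held 159 Cldn11 UMIs and no Col2a1 UMI, although 7 cells allow a true share of up to 41.0%. A further 8 cells with 9 to 47 Cldn11 UMIs were kept out by an excluded gene, which was Cdh5 with 1 to 3 UMIs in 7 of them, and 2 of the 8 had 1 Col2a1 UMI. No cell had 8 or more UMIs of both. So few cells reached 8 UMIs of either gene that this cannot decide whether the 2 were separate. Cldn11 was detected in 41.7% (15.2 to 72.3%) of the 12 cells with at least 8 Col2a1 UMIs, against 3.998% of Col2a1-negative cells.

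**Figure D2:**
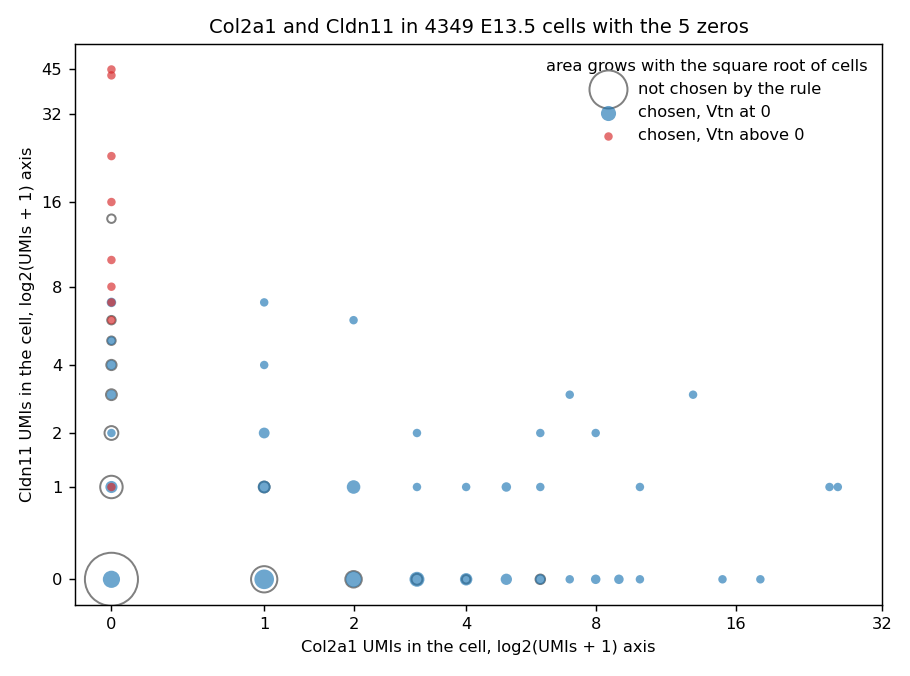
Col2a1 UMIs (x axis) and Cldn11 UMIs (y axis) of the 4349 E13.5 cells with the 5 zeros, both on a log2(UMIs + 1) axis; open circles are cells outside the rule, blue circles chosen cells without Vtn and red circles chosen cells with Vtn, and larger circles hold more cells. The red circles all sit at 0 on the Col2a1 axis, and the cells with most Col2a1 have at most 3 Cldn11 UMIs.

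Vtn was largely separate from Col2a1 and Col9a3. None of the 48 cells with Vtn and the 5 zeros had Col2a1 (0 to 7.40%), against 9.81% (8.94 to 10.7%) of those without Vtn. For scale, 3 counts of 48 would be a share of 6.25%. Col9a3 was in 1 of the 48 (2.08%, 0.0527 to 11.07%) against 12.1% (11.11 to 13.1%), so its intervals barely missed each other. Col9a1 was in 3 (6.25%, 1.31 to 17.2%) against 11.3% and Mia in none (0 to 7.40%) against 4.58%. These 48 cells did not resolve Col9a1 or Mia. Cldn11 was in 15 (31.2%, 18.7 to 46.2%) against 4.35% (3.76 to 5.00%). Among all 74 cells of the library with Vtn, excluded genes aside, 2 had a single Col2a1 UMI. By contrast Foxc2 was shared by both sides. Among 156 cells with Foxc2, Col2a1 was found in 43.6% (35.7 to 51.7%) and Cldn11 in 30.1% (23.0 to 38.0%). In cells without Foxc2 these shares were 8.44% and 3.70%. Fmod behaved likewise, with Col2a1 in 33.2% and Cldn11 in 12.1% of its 307 cells, against 7.92% and 4.08% of cells without Fmod. Col2a1, Col9a1 and Col9a3 were found together most often, with Col9a1 in 39.6% (34.9 to 44.4%) of Col2a1-positive and 8.25% (7.41 to 9.16%) of Col2a1-negative cells.

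The chosen cells were then divided into 129 with Col2a1 alone, 41 with Col2a1 and Cldn11, 24 with Cldn11 alone and 35 with neither. Summed cartilage genes, none of which is a gene of the rule, reached 854 CPM (806 to 905 CPM) with Col2a1 alone, 1117 CPM (1018 to 1225 CPM) with both, 480 CPM (393 to 581 CPM) with Cldn11 alone and 606 CPM (520 to 703 CPM) with neither. Summed meninges genes reached 1975 CPM (1901 to 2052 CPM), 2271 CPM (2128 to 2422 CPM), 3752 CPM (3500 to 4016 CPM) and 1836 CPM (1683 to 1999 CPM) in the same order. The cells with both genes were thus highest in cartilage genes and the cells with Cldn11 alone in meninges genes. The median depth of the cells with both was 8958 UMIs, and 7 of the 41 exceeded 2 times the library median, the limit used here for droplets that may have held 2 cells.

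The meninges side rested on 9 cells. Without the 9 chosen cells that had Vtn, all of which were in the group with Cldn11 alone, the summed meninges genes of that group were 2190 CPM (1951 to 2450 CPM) and the summed cartilage genes 653 CPM (526 to 802 CPM). The log2 difference between Col2a1 alone and Cldn11 alone in the meninges list then shrank from -0.93 to -0.15 (-0.32 to 0.03), and that in the cartilage list from 0.83 to 0.39 (0.08 to 0.71).

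**Figure D3:**
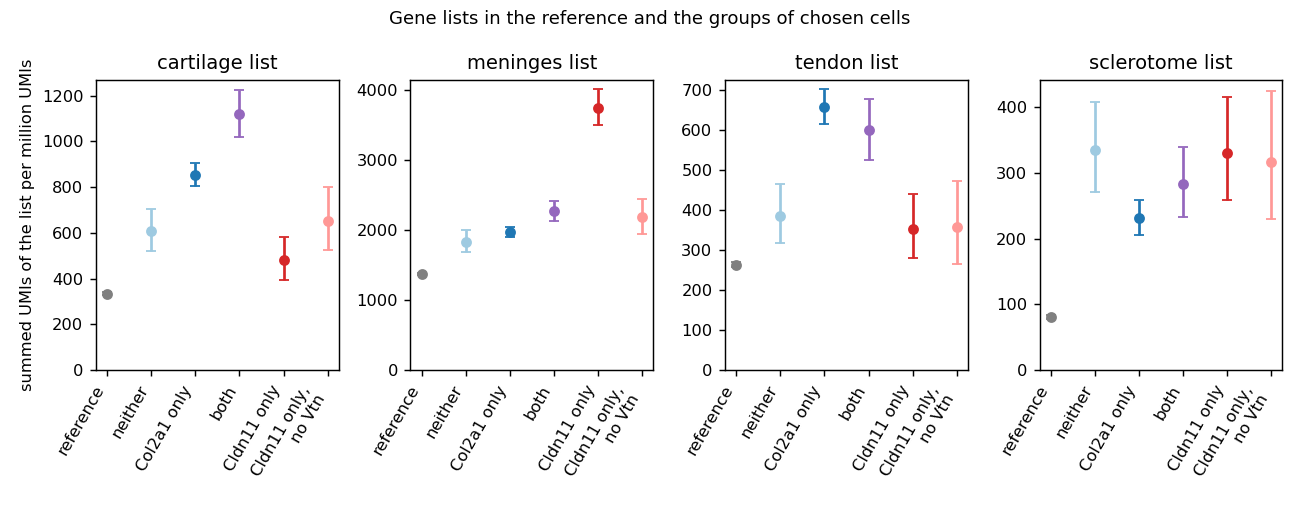
Summed CPM of the cartilage, meninges, tendon and sclerotome lists in the reference and in the chosen cells by detection of Col2a1 and Cldn11; points are sums over cells, bars the 95% Poisson interval, and each y axis starts at 0. The meninges list stands at 3752 CPM in the cells with Cldn11 alone and at 2190 CPM in the same group without the 9 cells with Vtn.

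Between the 129 cells with Col2a1 alone and the 24 with Cldn11 alone, 135 of 4602 genes (2.93%) were higher on the Col2a1 side and 84 (1.83%) on the Cldn11 side, 4.76% in either direction. The Col2a1 side was led by Tnmd with 158 UMIs (117 CPM) against 2 UMIs, a 12.9-fold ratio (3.51 to 108), by Otor, which encodes a relative of the Mia protein, with 137 UMIs against 2, and by Rgcc with 75 UMIs against 0, which is at least 4.08-fold when the floor of 3 UMIs over the group is used. Scx had 85.9 CPM against 18.1 CPM and Matn4 70.3 CPM against 13.6 CPM. Of the 9 tendon genes 3 of the 6 with enough UMIs were higher and 1 was lower, and of the cartilage genes 3 of 6 were higher and none lower. Hence the cells with Col2a1 alone, summed together, carried tendon as well as cartilage transcripts. Whether single cells carried both was not tested. The 12 cells with at least 8 Col2a1 UMIs, with or without Cldn11, held 2 UMIs of Tnmd and 5 of Scx.

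On the Cldn11 side, Slc6a13, a GABA transporter gene of the meninges, had 63 UMIs in 9 of 24 cells and none in the 129 cells, which is at least 129-fold. The Wnt ligand gene Wnt6 had 82 UMIs in 18 cells against 36 UMIs and the growth factor gene Bmp7 43 UMIs in 12 cells against 37 UMIs. Ptgds, which encodes a prostaglandin synthase of the meninges, had 118 CPM against 2.96 CPM, and the retinoic acid synthesis gene Aldh1a2 145 CPM against 0.74 CPM, both under 50 UMIs in these groups and named after their values were seen. Of 12 meninges genes with enough UMIs, 5 were higher on this side and none on the other. A pair of the leading genes came from single cells: all 51 UMIs of Lgals3, a galectin gene, were in 1 cell, and 198 of the 204 UMIs of the embryonic globin gene Hbb-bh1 were in 1 cell with Vtn.

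The 9 chosen cells with Vtn were alike in most of these genes. Their Cldn11 ranged from 1 to 45 UMIs with a median of 10, 7 of the 9 had 6 to 13 UMIs of Slc6a13, and each had 1 to 21 UMIs of Wnt6 and 1 to 51 UMIs of Igfbp2, an insulin-like growth factor binding protein gene. All had Fmod and Lum was found in 8 of them, whereas Sox9, Col2a1, Col9a3, Mia, Scx and Tnmd were at 0 in each. These cells were singled out after their values were seen. Erythroid transcripts summed to 41916 CPM in them against 9986 CPM in the other 220 chosen cells, and the part of these transcripts in the values above was not tested.

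Clustering of the chosen cells by genes outside the rule gave 4 groups. Cluster 1 held 63 cells and contained 42 cells with Col2a1, 28 with Cldn11 and 7 with Vtn. Slc6a13, Lgals3 and 1500015O10Rik were high in it, but 61 of its 63 Slc6a13 UMIs were in the 7 cells with Vtn and 51 of its 54 Lgals3 UMIs in 1 of these. The third, 1500015O10Rik, had 270 UMIs in cluster 1 and 119 in the other clusters. Cluster 2 held 27 cells led by the sclerotome and neurofilament genes Meox1, Pax1 and Nefl, of which 21 had Col2a1 and 4 had Cldn11. Cluster 3 held 43 cells led by Tnmd and C1qtnf3, with Col2a1 in 37 and Cldn11 in 1. Cluster 4, with 96 cells, was led by genes of dividing cells, and its summed cell cycle genes were 2838 CPM against 365 to 449 CPM in the others. Col2a1, which the rule favoured, was found in most cells of every cluster, from 66.7% to 86.0%, while Cldn11 ranged from 2.33% to 44.4%.

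Cluster 4 differed from the other clusters in transcripts of further cell types. Muscle genes summed to 365 CPM there against 40.0 to 63.5 CPM, epithelial genes to 332 CPM against 22.2 to 81.3 CPM and erythroid genes to 16835 CPM against 2307 to 9665 CPM. Its cartilage genes were the lowest at 599 CPM, with 1354 CPM in cluster 1, 951 CPM in cluster 2 and 730 CPM in cluster 3. The part of these transcripts in the choice of its cells was not tested.

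When all 5962 cells were clustered, again without the 14 genes of the rule, 121 chosen cells (52.8%) fell in 1 of 25 clusters and the other 108 were spread over 14 further clusters. The cluster held 345 cells, and 35.1% (30.0 to 40.4%) of them met the rule. Its chosen cells had 1083 CPM of cartilage genes, 202 CPM of Sox9 and 112 CPM of Foxc1, against 586 CPM, 97.3 CPM and 36.8 CPM in the chosen cells elsewhere. Those elsewhere had more muscle transcripts (343 against 45.1 CPM), more epithelial transcripts (309 against 51.3 CPM) and more cell cycle transcripts (2599 against 418 CPM). The rule thus gathered a core in 1 cluster together with cells from many others, and Cldn11-positive cells with Col2a1 were found in both, with 21 of the 41 in the cluster.

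The cluster split further into 4 sub-clusters, again from genes outside the rule. Other genes of the same cells made the split, so the values are a description, and 30 of the 345 cells had a UMI of an excluded gene. Sub-clusters 1 and 2, with 105 and 72 cells, had no Cldn11 UMI and were rich in Tnmd (257 and 302 CPM). Scx stood at 199 CPM in the first and Acta2, a smooth muscle actin gene, at 424 CPM in the second. Col2a1 was still found in 31 cells of the first (29.5%, 21.0 to 39.2%) and 19 of the second (26.4%, 16.7 to 38.1%). Of all cells with the 5 zeros, 9.70% had Col2a1. Sub-cluster 4, with 63 cells, was led by Ebf2, Nefl, Pax9 and Pax1, had 671 CPM of sclerotome genes and carried 153 CPM of Col2a1 and 167 CPM of Mia but only 6 UMIs of Cldn11. Sub-cluster 3, with 105 cells, held 379 of the 385 Cldn11 UMIs of the cluster and all 189 of its Vtn UMIs, together with the highest Col2a1 (267 CPM, 235 to 302 CPM). It also had the most Foxc1, at 138 CPM, and Ptgds was among its leading genes.

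**Figure D4:**
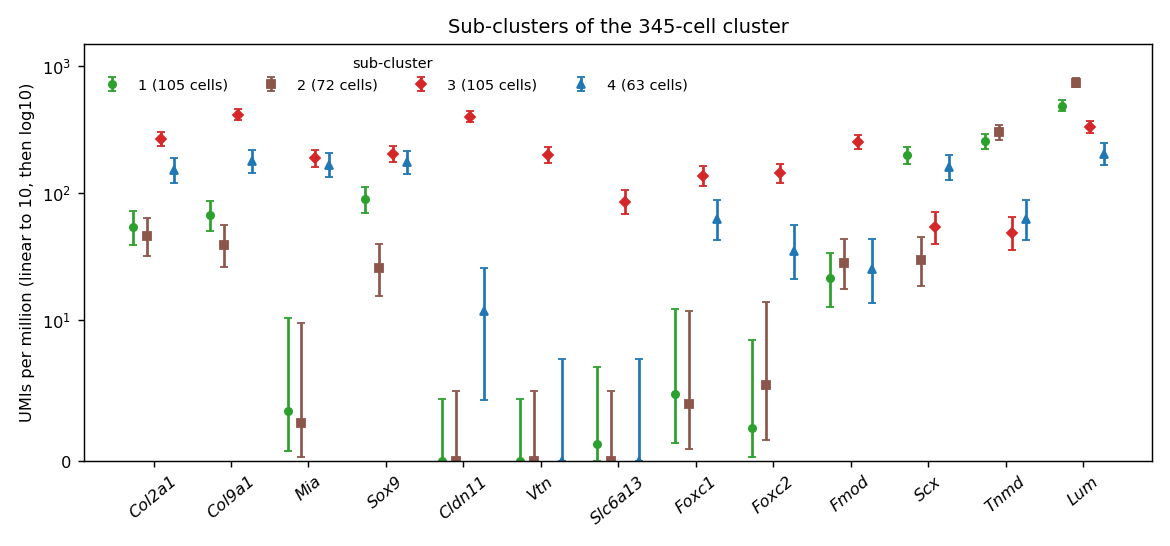
CPM of 13 genes in the 4 sub-clusters of the 345-cell cluster, with 95% Poisson intervals; the y axis is linear up to 10 and logarithmic above. Cldn11, Vtn and Slc6a13 stand high in sub-cluster 3 only among the 4, whereas Col2a1, Mia and Sox9 are shared by sub-clusters 3 and 4. Tnmd is highest in sub-clusters 1 and 2, where Col2a1 was also found, in 29.5% and 26.4% of the cells.

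Within sub-cluster 3, Col2a1 was found in 66 of the 105 cells and Cldn11 in 40, with both in 18. Col2a1 was detected in 45% (29.3 to 61.5%) of its Cldn11-positive cells and in 73.8% (61.5 to 84.0%) of its other cells, with intervals that met at their ends. Without the 13 cells that had Vtn, these shares were 63.0% (42.4 to 80.6%) and 73.8%, and the intervals overlapped widely. In sub-cluster 4 the order was the other way round, with Col2a1 in 5 of 6 Cldn11-positive cells (83.3%, 35.9 to 99.6%) and in 47.4% (34.0 to 61.0%) of the others, again with overlapping intervals. Whether both transcripts shared cells within a sub-cluster was therefore not resolved.

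Cldn11 was not restricted to these cells. Only 34.6% of the 772 Cldn11 UMIs of the library were in chosen cells, against 49.0% of Col2a1. Cdh5-positive cells, which the rule left out, held 236 Cldn11 UMIs (30.6% of the library, 50.2 CPM). The 8 cells with 9 to 47 Cldn11 UMIs and an excluded gene held 172 UMIs, and 6 of them lay in the main library cluster. Of these 8 cells, 7 had Cdh5, 6 had Foxc2 and 5 had Foxc1. Much of the Cldn11 in Cdh5-positive cells thus came from few cells, and its CPM is not read as a level of endothelium. Cldn11 was detected in 10.5% of Cdh5-positive cells at full depth and in 6.36% after thinning to 3500 UMIs, against 2.60% of cells with the 5 zeros after thinning. A separate cluster of 45 cells led by Igfbp7, Rgs5 and Vtn had 46.5 CPM of Cldn11 and no chosen cell.

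Cells meeting the rule were almost all in the E13.5 library. The same rule found 4 of 5208 cells at E16.5 (0.0768%, 0.0209 to 0.197%) and none of 5065 at P0, where 3 counts would be a share of 0.0592% and the exact interval reached 0.0728%. Col2a1 fell from 18.7 CPM over the whole E13.5 library to 0.257 CPM in the E16.5 and 0.107 CPM in the P0 library, and Cldn11 from 14.5 CPM to 1.28 CPM and 0.987 CPM. Sox9 did not follow, with 28.2 CPM, 17.4 CPM and 104 CPM in the 3 libraries, nor did Foxc1, with 6.75, 1.71 and 8.82 CPM. Stage and library cannot be told apart here, since each stage had 1 library. The skin was dissociated with trypsin at both E13.5 and E16.5 and with collagenase at P0, and the part of dissociation in these numbers was not tested.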

How the data were processed

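Mouse dorsal skin was profiled as 1 droplet library per stage, which the authors aligned to mm10 with Cell Ranger 2.2.0 and filtered in Seurat 2.3.4 to cells with at least 1750 genes and genes found in at least 3 cells. The deposited values are the natural log of 1 plus the UMI count scaled to 10000 per cell. Whole UMI counts were recovered from the smallest step of each cell: all 48197283 values above 0 came out whole within 0.001. Counts were summed over cells and divided by the summed UMIs of those cells. A gene was called when log2 of CPM + 10 differed by 1 or more with at least 50 UMIs over both groups. Genes were named when they were in the rule, were on a fixed list with 50 UMIs or more in the groups compared, or were among the 10 highest or lowest differences. The members and lists were chosen with earlier results of these data known. The core promoter motifs, the 9 cells with Vtn and the sub-clusters were added after the data were seen. No doublet caller was used, cells above 2 times the median UMIs were kept, and an alternative left them out. Clusters came from scanpy 1.11.5 with the Leiden method (igraph 0.11.9), always without the 14 genes of the rule, with 20 principal components, 1000 variable genes and resolution 0.5 for the chosen cells and the sub-clusters, and with 30 components, 2000 genes and resolution 1 for the library. The fold calculation was tested on simulated data. The number of chosen cells, the shares of cells with both transcripts, the list differences, the counts of called genes and the genes named by rank were recomputed with the alternatives described at the end.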

Additional observations from a re-analysis of the deposited data

Results flagged for a closer look

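The libraries of E16.5 and P0 took no part in the comparisons above. At E16.5, 4 cells met the rule, which is above the limit of 3 counts that a count of 0 allows. A pair of them, with 6634 and 8813 UMIs, had 6 and 4 UMIs of Vtn, 1 UMI each of Fmod and Foxc2, and 53 and 20 UMIs of Rgs5, a pericyte gene. The other 2, with 20980 and 16268 UMIs, had 1 or 2 UMIs each of Col9a1 and Col9a3 and 15 and 13 UMIs of Lum. Col2a1, Sox9, Foxc1 and Slc6a13 were at 0 in all 4. The cause was not tested.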

How the results depend on the processing

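No paired analysis was possible because each stage had 1 library, and no library could be left out. With every cell thinned to 3500 UMIs before the rule and its 5 zeros were applied, 130 cells met the rule. Col2a1 was then in 14.5% of Cldn11-positive cells and Cldn11 in 7.31% of Col2a1-positive cells. The thinned shares given earlier, such as 16.8%, kept the cells with the 5 zeros at full depth and so differ. After thinning, 322 genes passed between chosen and reference cells (56.2% of them higher, against 82.2% at full depth) and 120 between Col2a1 alone and Cldn11 alone. The cartilage list differed by 1.61 on the log2 scale between the latter 2 groups. The rule itself set the size of the group: 486 cells had 2 or more marker genes and 113 had 4 or more, with 72 and 266 genes past the limit against the reference (97.2% and 69.5% of them higher). With 2 or more marker genes, 136 genes passed between Col2a1 alone and Cldn11 alone and the meninges list differed by -0.37, and with 4 or more the cartilage list differed by 1.22 and the meninges list by -0.81. Without Fmod and Vtn in the rule the cartilage list differed by 0.53 and the meninges list by -0.13, with 15 cells left on the Cldn11 side. Without cells above 2 times the median depth the cartilage list differed by 1.26, and with at least 2500 genes per cell Col2a1 was in 29.7% of Cldn11-positive cells.

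Adding 1 to CPM gave 712 genes past the limit against the reference (51.7% of them higher, against 82.2% with 10 added) and 340 between the Col2a1 and Cldn11 groups, while adding 50 gave 41 and 56 (33.9% of the 56 higher with Col2a1, against 61.6% with 10 added). A minimum of 20, of 100 or of no UMIs per gene gave 493, 85 and 776 genes between the 2 groups. In alternatives chosen after the data were seen, leaving out the chosen cells with Vtn gave 0.39 for the cartilage and -0.15 for the meninges list, and keeping only the chosen cells of the main cluster gave 1.77 and -1.26, with 557 genes past the limit against the reference (253 higher and 304 lower, so 45.4% higher against 82.2%). None of these changed the direction of either list, but the direction of the meninges list was not always resolved. Its interval included 0 without the chosen cells with Vtn (-0.32 to 0.03) and without Fmod and Vtn in the rule (-0.30 to 0.04).

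Of 320 recomputed values for the 20 genes named against the reference, 297 kept direction and limit and none reversed. The other 23 came within the limit and were all of the 10 lowest genes, each of which did so with 2 or more marker genes. Of 300 for the 20 genes between the Col2a1 and Cldn11 groups, 275 did and 6 reversed. These were Lrrtm1 after thinning (-0.028), Dbf4 (-0.64) and Surf1 (-0.058) with 2 or more marker genes, Lgals3 without cells holding Hbb-bh1, Krt14 or Myog (0.55) and without cells holding Vtn (0.37), and Hbb-bh1 without cells holding Vtn (0.23). The causes were not tested. Shares of Col2a1 in groups under 10 cells and genes under 50 UMIs were not resolved at this depth.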
